A study of Mus musculus with 2 samples.

Results

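The 36 genes described here encode the contractile apparatus of smooth muscle and proteins of the sarcomere and its anchors, from actins and myosin chains to calponins, tropomyosins, Z-disc proteins and the coactivator myocardin. They were taken by symbol from a fixed list, and all 36 were found among the 21014 genes of each deposited table. Fibroblastic stromal cells were isolated from lungs of C57Bl/6J mice that had been fed a high fat diet (HFD) or normal chow (NC) for 16 weeks, and each diet gave 1 droplet library made with a 10x Genomics 3′ v3 kit. The number of animals behind a library is not given in the sources used here. As each diet has a single library no test between diets was possible, so every HFD over NC ratio below compares these libraries and has no replicate check.

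Smooth muscle shortens when myosin light chain kinase phosphorylates the regulatory light chain and the myosin heads pull on filaments of smooth muscle actin. Myosin phosphatase reverses the step, and calponin, caldesmon and tropomyosin set how readily myosin binds the filaments. Many of the genes are switched on together by serum response factor and its coactivator myocardin through CArG boxes. In the lung, these genes mark muscle of airways and vessels, and myofibroblasts and pericytes carry part of the programme.

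Cells needed 500 detected genes and no more than 10% of counts from mitochondrial genes, and 6089 HFD and 8140 NC cells passed, with a median of 10045 and 7524 counts per cell. The deposited annotation divides them into 5 classes, which the submitters call pericytes, myofibroblasts and fibroblasts of an Asc1, a Gas6 and a Pi16 kind. The class labelled pericytes held 596 HFD and 250 NC cells, with a median depth of 19714.5 and 15459.5 counts. It contributed 18.6% of all counts in HFD and 6.31% in NC. CPM, the unit of level used here, is a gene's counts scaled to 1000000 counts of the summed cells of a class, and intervals are 95% intervals for counting error only. The label and the markers differed. All 9 smooth muscle markers had their highest level in this class in both libraries, but only 4 of 12 pericyte markers did. The 9 are all members of the gene set described here, so they are not a check independent of that set. Of the 12, 7 (HFD) and 6 (NC) were highest in myofibroblasts. Summed, the 12 were close in level, at 1066 (HFD) and 788 CPM (NC) in this class and 1127 and 895 CPM in myofibroblasts. Single markers differed more. Higd1b, a lung pericyte marker, was at 3.86 (HFD) and 2.04 (NC) CPM among these cells and at 69.0 and 26.2 CPM in myofibroblasts. The class is therefore named by its label throughout.

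The promoters of the genes were searched for the CArG box, the site that serum response factor is known to bind, because members of the set are known targets of this factor. RefSeq promoters (GRCm38.p6, 250 bases before to 50 after the start) were found for 31 of the 36 genes, and Actg2, Tagln, Myh11, Tcap and Myocd had no entry. The box was searched as CC, 6 bases of A or T, then GG, with no mismatch allowed. Such a CArG box on either strand lay in the promoter of 6 of the 31 genes (19.4%), against 1.81% of 27025 genes with a promoter of the same length. A box with a mismatch or outside the window would be missed, so a gene without a match may still have one. The 6 matches are shown on the gene's strand, 5′ to 3′, with the CArG box in capitals. They are Actc1 (chr2:114052888-114052947, minus strand), Myl9 (chr2:156775278-156775337, plus), Cnn2 (chr10:79988519-79988578, plus), Myl6 (chr10:128493025-128493084, minus), Vcl (chr14:20929148-20929207, plus) and Ldb3 (chr14:34588682-34588741, minus).
Actc1: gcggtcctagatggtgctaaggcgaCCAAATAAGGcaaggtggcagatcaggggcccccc
Myl9: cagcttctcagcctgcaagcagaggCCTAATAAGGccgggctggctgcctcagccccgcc
Cnn2: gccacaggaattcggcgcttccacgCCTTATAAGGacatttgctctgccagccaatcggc
Myl6: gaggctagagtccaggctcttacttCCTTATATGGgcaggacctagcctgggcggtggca
Vcl: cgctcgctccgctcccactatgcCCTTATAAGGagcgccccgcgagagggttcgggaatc
Ldb3: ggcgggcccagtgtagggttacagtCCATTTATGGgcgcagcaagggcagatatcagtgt
The box of Cnn2 and that of Vcl have the same letters. Those of Actc1, Cnn2, Myl6 and Ldb3 lay at most 46 bases before the annotated start, and those of Myl9 and Vcl lay 151 and 217 bases before it. CATTCC, the letters that TEAD factors are known to bind, lay on either strand of 13 of the 31 promoters (41.9%, against 16.6% of all genes), among them those of Acta2, Lmod1, Mylk, Smtn and Tpm1. Only Vcl had both. A match describes the letters of this window and does not show binding.

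Across the 5 classes, 28 of the 36 genes had their highest level in the class labelled pericytes, in HFD and in NC. The smooth muscle markers used above are among these 28. Classes were assigned by the submitters from the same cells, so these levels describe the classes and are not tested. Acta2, smooth muscle alpha-actin, had 12769 CPM in HFD and 12126 CPM in NC in the class labelled pericytes, against 793 and 989 CPM in myofibroblasts and 87.2 and 77.5 CPM in Asc1 fibroblasts. Myh11, the smooth muscle myosin heavy chain, was at 2878 (HFD) and 2369 CPM (NC) there, with 96.0 and 146 CPM in myofibroblasts. Actc1, cardiac alpha-actin, which mouse airway muscle is known to express, was nearly confined to the class, with 98.1% (HFD) and 97.3% (NC) of its counts in these cells. Myofibroblasts came next for 19 of these 28 genes in each library. The intervals of these 2 classes overlapped for Sorbs2 in both libraries and for Tcap in NC (186 and 155 CPM).

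**Figure D1:**
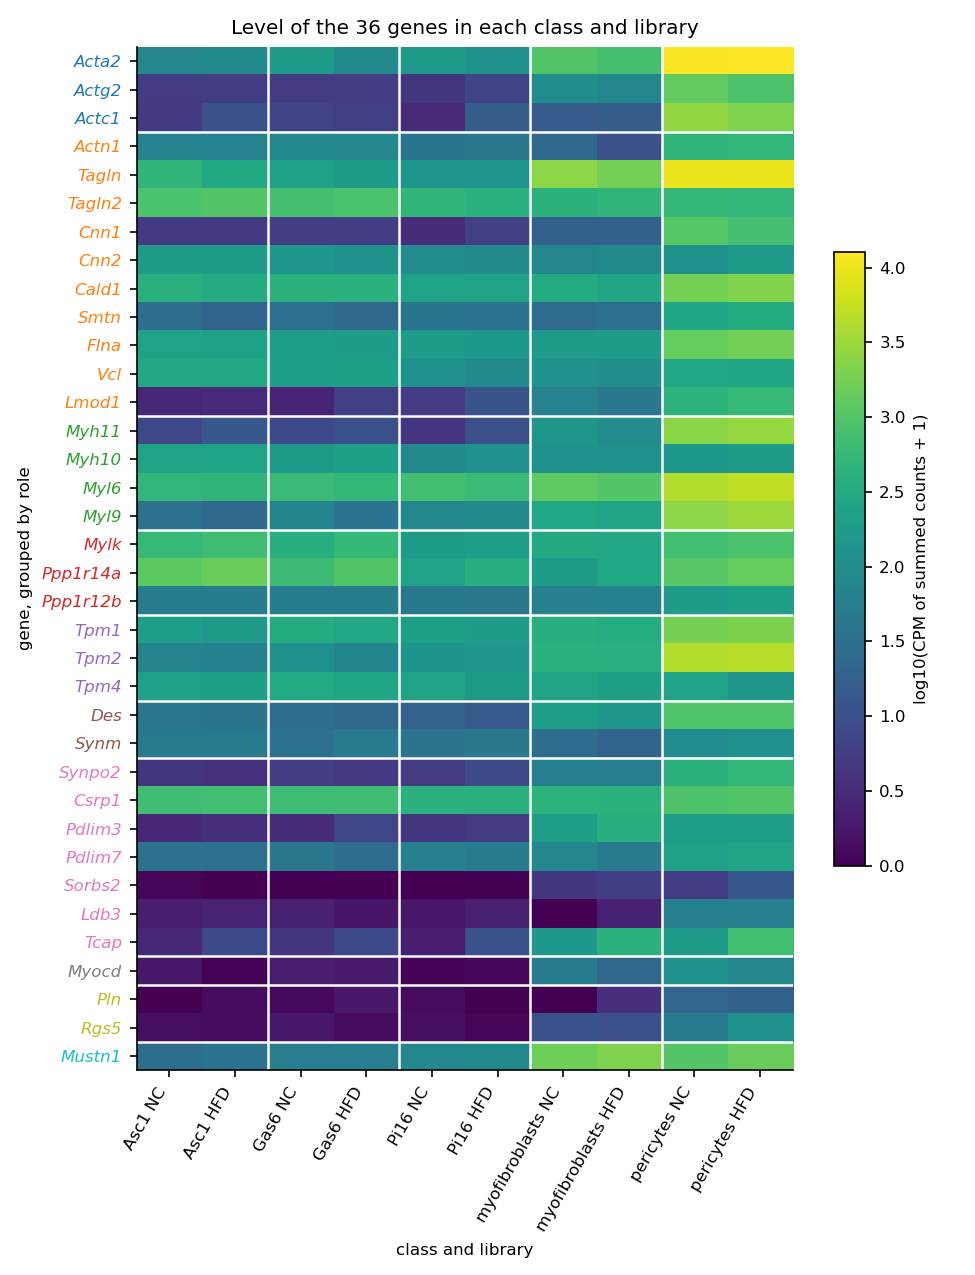
Level of each of the 36 genes (rows, coloured and divided by role) in each class and library (columns, NC beside HFD), as log10 of CPM of summed counts plus 1. The columns of the class labelled pericytes are brightest for 28 genes in both libraries, Acta2 and Tagln foremost, while Tagln2, Csrp1 and Mylk are spread over all classes.

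The other 8 genes were highest elsewhere, and in the same class in both libraries. Mustn1, a small protein of muscle and tendon, and Pdlim3, a PDZ and LIM protein of the Z-disc, were highest in myofibroblasts, at 2023 and 376 CPM in HFD and 1555 and 199 CPM in NC. The interval of Pdlim3 in NC overlapped that of the class labelled pericytes (191 CPM). Tagln2, Cnn2, Myh10 and Vcl, relatives of muscle genes with a broad distribution, were highest in Asc1 fibroblasts, and Tpm4, a nonmuscle tropomyosin, was highest in Gas6 fibroblasts. The HFD interval of Cnn2 overlapped that of the class labelled pericytes (178 and 167 CPM). For Vcl, which encodes vinculin, the highest class did not stand apart from the next in either library. Ppp1r14a, which encodes CPI-17, an inhibitor of myosin phosphatase, was highest in Asc1 fibroblasts, at 1511 (HFD) and 1176 CPM (NC). The class labelled pericytes had 1358 and 1085 CPM of it. Mylk, the light chain kinase, reached 682 (HFD) and 572 CPM (NC) in Asc1 fibroblasts, 76.9% and 79.3% of its level in the class labelled pericytes. Myh11 in Asc1 fibroblasts was at 0.42% and 0.291% of that level.

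Counted per cell, the 36 genes together made up a median of 6.10% (HFD) and 5.81% (NC) of a cell's counts in the class labelled pericytes, and 5% of the cells lay below 2.84% in HFD and below 1.08% in NC. The median was 0.882% and 0.854% in myofibroblasts and 0.664% and 0.630% in Asc1 fibroblasts. In the class labelled pericytes, 11 of 596 HFD cells (1.85%) and 13 of 250 NC cells (5.2%) had less than 1% of their counts from the genes. That share was 59.8% and 57.4% of cells in myofibroblasts and 88.7% and 89.7% in Asc1 fibroblasts, so 1% does not divide the classes. A second count left out 10 genes listed as broadly expressed. Over the other 26 genes, 2.18% (HFD) and 5.6% (NC) of cells in the class labelled pericytes were under 1%. The share was 77.1% and 73.0% in myofibroblasts and 99.0% and 99.3% in Asc1 fibroblasts. These 26 still include Ppp1r14a, Mylk and Csrp1, which were at 1511, 682 and 729 CPM in HFD Asc1 fibroblasts.

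Between the diets, 2 of 35 measured contractile genes of the class labelled pericytes were higher and 2 lower in HFD by at least 1.5-fold. Of all 7016 genes measured there, 11.4% were higher and 6.77% lower by that fold. Measured means at least 50 effective counts over both libraries, and Sorbs2 alone fell short. The median log2 ratio was 0.18 over the 35 genes and 0.08 over all genes, with 26 of the 35 above a ratio of 1 and 9 below. Signs left aside, the median size of the log2 ratio was 0.28 over the 35 genes and 0.27 over all genes. Scaling by the median of ratios gave 8.58% higher and 8.88% lower over all genes and, of the 35, 2 higher and 3 lower, with Actg2 (0.665) added to the 2 lower genes. Stress genes moved in the same cells. Of 22 immediate early and heat shock genes, which are known to respond to tissue dissociation, 0 were higher and 9 lower in HFD, and their summed level was 23673 CPM in HFD and 28839 CPM in NC. Their part in the members' ratios was not tested.

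Of the 3 actins, Actg2 and Actc1 were lower in HFD and Acta2 was nearly level. Acta2 had a ratio of 1.05 (1.03 to 1.07), and its log2 ratio was -0.0078 after scaling by the median of ratios. Actg2, the gamma-actin of visceral muscle, was at 913 CPM in HFD and 1296 CPM in NC, a ratio of 0.704 (0.660 to 0.752). Actc1 was at 2039 and 2748 CPM, a ratio of 0.742 (0.710 to 0.776). Both were lower in HFD beyond counting error but short of 1.5-fold, except that Actg2 passed it, at 0.665, after scaling by the median of ratios.

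Among the actin-binding proteins, Tagln, the smooth muscle marker transgelin, was at 9819 CPM in HFD and 9818 CPM in NC, and the interval of the ratio was 0.978 to 1.02. Cnn1, the smooth muscle calponin, was lower in HFD, at 770 against 1038 CPM (ratio 0.742, 0.690 to 0.798). Cald1 (caldesmon), Flna (filamin A), Smtn (smoothelin) and Lmod1 (leiomodin, which nucleates actin filaments) had ratios from 1.18 to 1.27 with intervals above 1. The nearest nonmuscle relatives of the calponin and transgelin genes gave 1.29 (1.07 to 1.57) for Cnn2 and 0.949 (0.862 to 1.05) for Tagln2.

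The 4 myosin chains were all on the HFD side. Myh11 had a ratio of 1.21 (1.16 to 1.27), the regulatory light chain Myl9 1.29 (1.24 to 1.35), the essential light chain Myl6 1.19 (1.15 to 1.23) and the nonmuscle heavy chain Myh10 1.22 (1.03 to 1.47). The genes that set light chain phosphorylation were near them, with 1.23 for Mylk, an interval of 1.17 to 1.34 for Ppp1r14a and 1.16 for Ppp1r12b, a myosin phosphatase subunit whose interval included 1. All 7 stayed within 1.5-fold. Tpm1 and Tpm2, the muscle tropomyosins, were at 1.07 and 1.07, and Des (desmin, the muscle intermediate filament) was at 950 CPM in HFD and 944 CPM in NC.

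Tpm4 was the tropomyosin that differed, at 147 CPM in HFD and 228 CPM in NC (ratio 0.642, 0.547 to 0.755). Its counts were found in 49.8% of cells in HFD and 60% in NC, although the HFD cells were deeper. Near-identical sequence can divert its reads, since 10.4% of the 31-base words at its 3′ ends also occur in other genes. The gene that shares most of them is the pseudogene Gm7809. Tpm4 was at a log2 ratio of -0.50 with CPM averaged over cells and -0.51 after thinning, both short of the threshold.

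Myocd was lower in HFD. Its level was 74.1 CPM in HFD and 123 CPM in NC (ratio 0.603, 0.483 to 0.755), and 34.7% of cells in HFD and 45.2% in NC contained its transcript. After each cell was thinned to 2000 counts, the shares were 9.73% and 16.8%. In Asc1 fibroblasts, which are not muscle, Myocd was detected in 0.097% of cells in HFD and 0.225% in NC, at a median depth of 8472.5 and 6340 counts. Myocd was also lower in HFD in myofibroblasts, at 22.8 against 46.4 CPM.

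**Figure D2:**
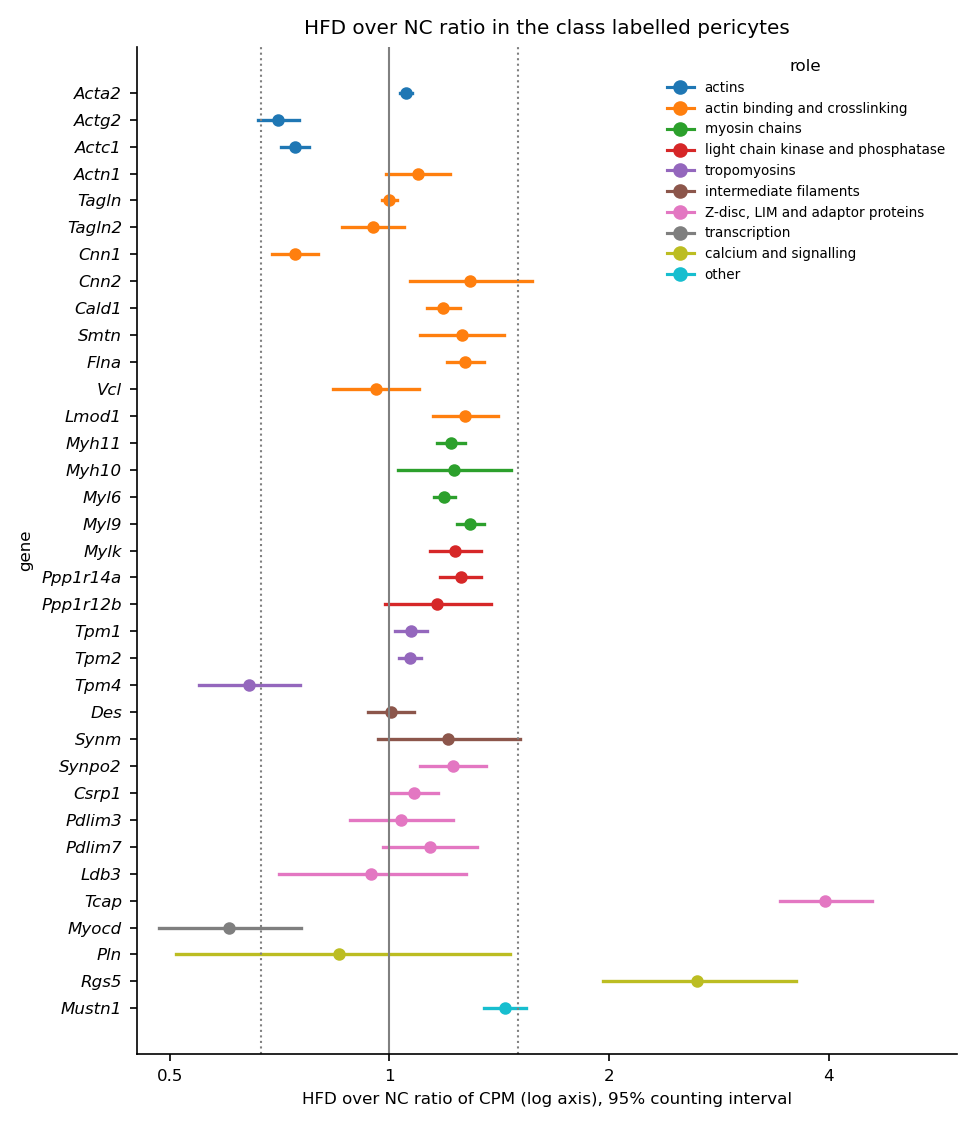
HFD over NC ratio of CPM (log axis) for the 35 genes measured in the class labelled pericytes, coloured by role, with 95% counting intervals and dotted lines at 1.5-fold. Tcap and Rgs5 lie beyond the right line and Myocd and Tpm4 beyond the left, while most other genes sit between 1 and 1.5.

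Tcap gave the highest ratio of the measured genes. It encodes telethonin, a small titin-capping protein of the Z-disc in striated muscle. Its level was 738 CPM in HFD and 186 CPM in NC, a ratio of 3.96 (3.43 to 4.59). Tcap was detected in 69.5% of these cells in HFD and 34.4% in NC, and after thinning to 2000 counts in 47.3% and 18%. The share in Asc1 fibroblasts was 1.26% in HFD and 0.200% in NC. Among cells with a count, the median level was 645 CPM in HFD and 299 CPM in NC. More cells carried Tcap in HFD, and those that did carried more. The log2 ratio of Tcap lay between 1.90 and 2.57 under all 9 alternatives tried.

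Rgs5, a regulator of G protein signalling used as a pericyte and vascular muscle marker, was at 123 CPM in HFD and 46.5 CPM in NC (ratio 2.64, 1.96 to 3.61). It rested on few cells. It was detected in 21.5% of cells in HFD and 15.6% in NC, and 14 HFD and 9 NC cells held 50% of its counts. After thinning to 2000 counts per cell the log2 ratio was 0.33, below the threshold, with the stricter cell filter it was 3.20, and the shares of cells were 10.1% and 8.8%. Mustn1, at 1475 CPM in HFD and 1024 CPM in NC, came nearest to the threshold of the genes short of it (1.44, 1.35 to 1.54). It passed with averaging over cells (1.52) and after thinning (1.56), and Cnn2 passed after thinning (1.54). With the stricter filter of 1000 detected genes and a limit of 5% for the mitochondrial share, only 163 HFD and 78 NC cells of the class were left. Smtn, Myh10, Myl9, Ppp1r12b and Mustn1 then also passed 1.5-fold, with ratios from 1.55 to 1.69. Of all genes measured with that filter, 12.9% were higher by that fold.

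Because the NC class held only 250 cells, the share of each gene's counts in its top 4% of cells (24 in HFD, 10 in NC) was compared. Over all genes measured in the class, the median share was 44.6% in HFD and 46.5% in NC. The median over the 36 genes was 17.1% and 17.4%. The genes were not matched to others by level, and a gene with few counts can lie in few cells only. The lower median is therefore not read as a property of the set. Acta2 had 11.2% and 10.8% of its counts in these cells, and the values of Tagln and Myl6 were close to it. Sorbs2, an adaptor of actin stress fibres, reached 89.3% in HFD and 100% in NC, where 3 cells held 50% of its 20 counts. Pln (phospholamban, which restrains the calcium pump) reached 74.5% and 91.3%, and Rgs5 64.2% and 56.1%. Pln was at 17.8 CPM in HFD and 20.9 CPM in NC, and the log2 ratio was 1.31 without the top 4% of cells. Its 235 HFD and 92 NC counts lay in 48 and 15 cells, so few counts were left without the top cells. Neither value gives Pln a direction. Ldb3, a Z-disc protein of striated muscle, was at 57.7 and 61.2 CPM with 36.2% and 34.4% of its counts in the top 4%.

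Tcap alone of the 36 genes was over 40% in NC only, with 41.2% of its counts in the top 4% of cells against 26.1% in HFD. In NC, 15 cells held 50% of its counts, and in HFD, 65 cells did. Without the top 4% of cells of each library the log2 ratio of Tcap was 2.31.

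**Figure D3:**
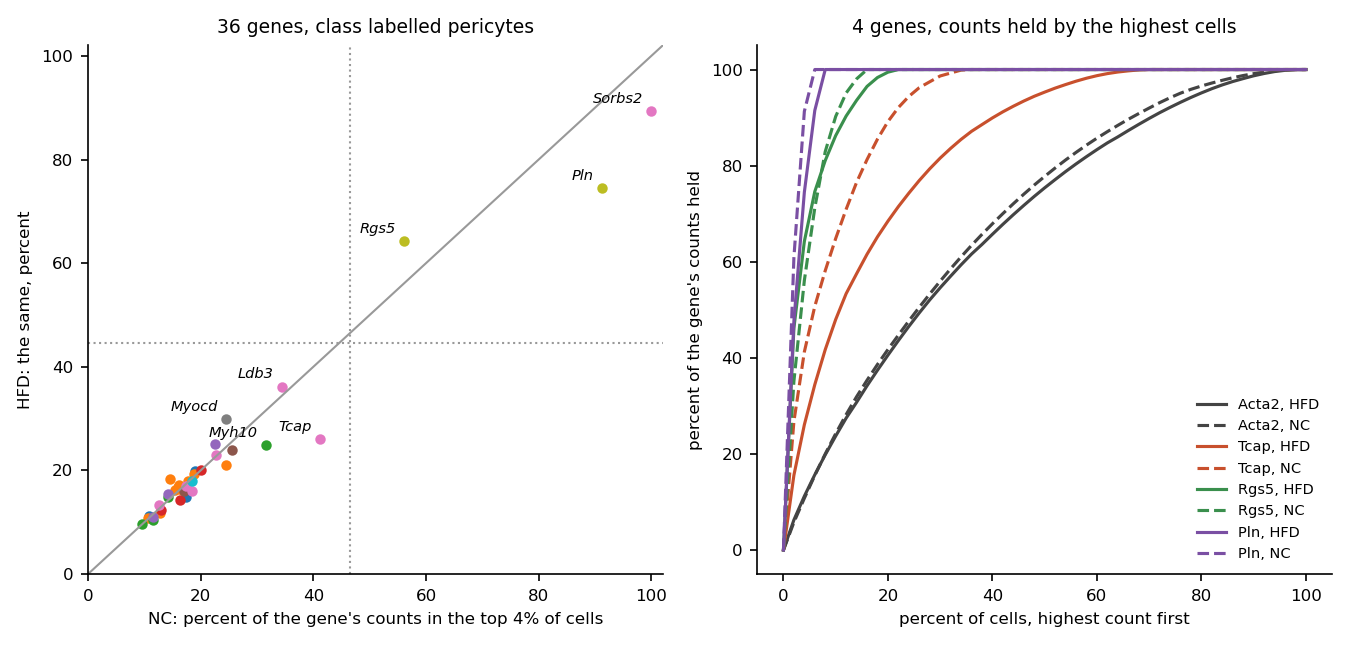
Left, percent of each gene's counts held by the top 4% of cells in NC (x axis) and HFD (y axis) of the class labelled pericytes, 36 genes coloured by role, with dotted lines at the medians of all genes (46.5% and 44.6%). Right, percent of a gene's counts held as cells are added from the highest count down, for 4 genes (HFD solid, NC dashed), where the Tcap curves of the diets part and those of Acta2 nearly coincide.

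The genes varied together from cell to cell to different degrees. Over the 596 HFD and 250 NC cells, the median Spearman rho of the 630 pairs was 0.0859 and 0.111, on values that share library and cell depth. Of these pairs, 25 in HFD and 66 in NC were above 0.3, and 22 were above it in both. Most of these involved Acta2, Tagln, Myl6, Myl9 or Tpm2, genes of the thin and thick filaments. Acta2 had a rho of 0.61 in HFD and 0.72 in NC with Tagln, 0.55 and 0.63 with Myl9, and 0.53 and 0.62 with Tpm2. Myh11 was tied to Flna, with 0.45 in both, and to Synpo2, a Z-disc and stress fibre protein, with 0.35 and 0.40. Actc1 went with Des, at 0.32 and 0.50. Tpm4 ran against Tagln, at -0.13 and -0.24. Tcap followed none of the other genes, with rho between -0.06 and 0.14 in HFD and between -0.09 and 0.14 in NC. The values are descriptions of 2 libraries, and sparse genes lie near 0 for lack of counts.

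**Figure D4:**
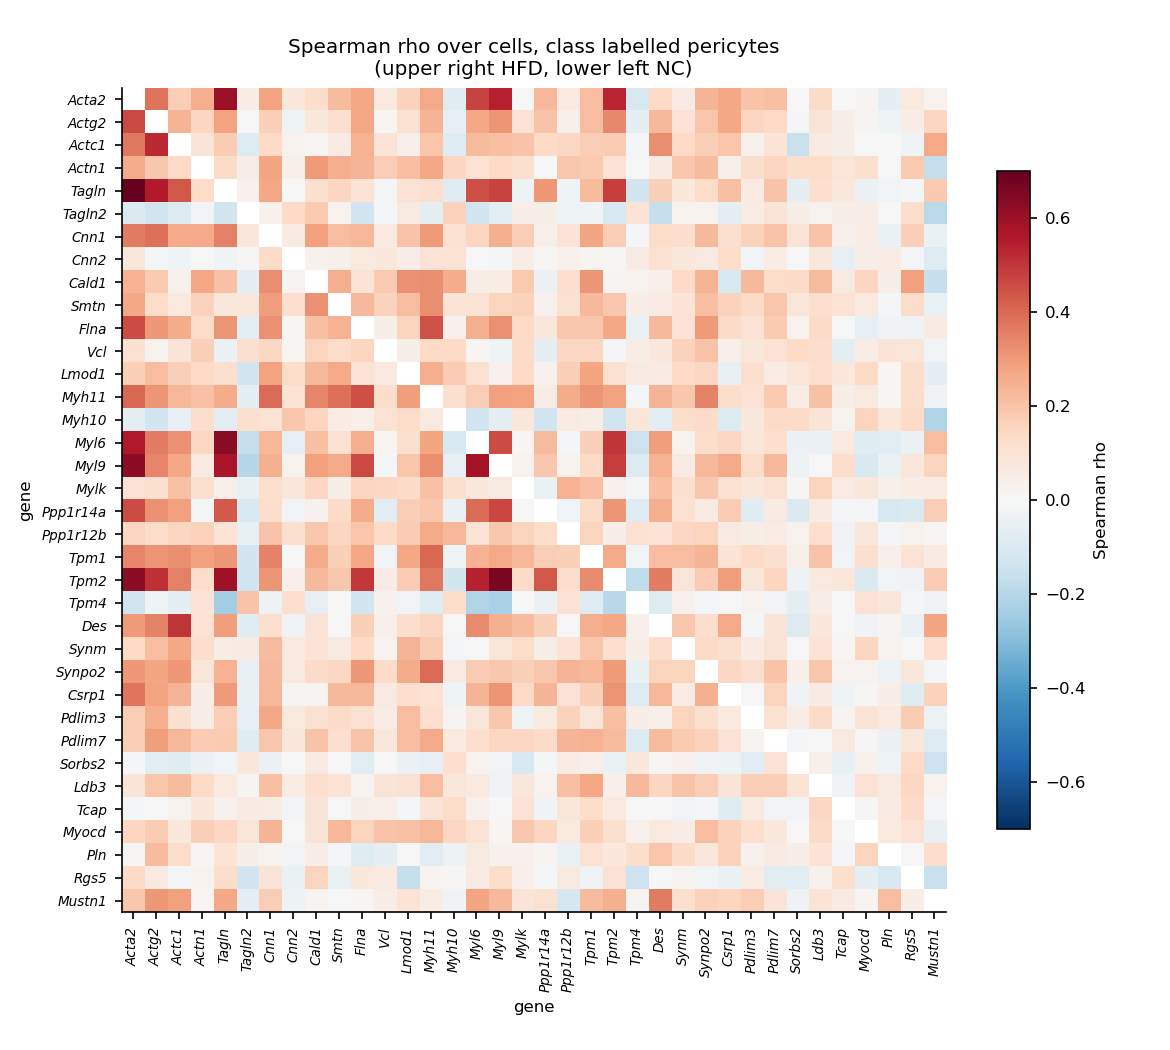
Spearman rho of CPM over cells for each pair of the 36 genes in the class labelled pericytes, HFD (596 cells) in the upper right and NC (250 cells) in the lower left, on a scale from blue (negative) to red (positive). Acta2, Tagln, Myl6, Myl9 and Tpm2 share the strongest red cells in both triangles, and the row of Tcap stays pale.

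In myofibroblasts (510 HFD and 667 NC cells), 3 of 27 measured genes were higher and 4 lower in HFD by at least 1.5-fold, where 7.62% and 7.94% of all measured genes were. Tcap was higher again, at 412 CPM in HFD and 155 CPM in NC (ratio 2.65, 2.15 to 3.28), with a count in 21.4% and 10.5% of cells and in 19.2% and 9.45% after thinning. Pdlim3 was at 376 and 199 CPM (1.90, 1.56 to 2.31), and was detected in 37.3% of cells in HFD and 22.6% in NC. Ppp1r14a was at 284 and 182 CPM (1.56, 1.26 to 1.94). On the lower side, Myocd had a ratio of 0.492 (0.260 to 0.893), Pdlim7, a LIM adaptor of the actin cytoskeleton, 0.599 (0.386 to 0.913), Lmod1 0.636 (0.399 to 0.995) and Myh11 0.659 (0.485 to 0.891). Counts behind the 4 lower genes were few, from 81 to 341 in HFD and from 156 to 490 in NC. After thinning to 2000 counts Myocd alone of the 4 was still past the threshold (log2 ratio -0.97), with -0.37 for Pdlim7 and -0.35 for Myh11, and with the stricter cell filter Myocd was at -0.47. Myh11 was also short of the threshold with no cell filter and with a total free of mitochondrial and ribosomal genes, and Lmod1 was no longer called with the stricter cell filter or with averaging over cells. Ppp1r14a fell short under 4 alternatives, with a log2 ratio of 0.44 among cells whose finer label also named them myofibroblasts, 0.44 with the stricter cell filter, 0.53 with averaging over cells and 0.58 after thinning. Tagln was at 1706 CPM in HFD and 2470 CPM in NC (0.691, 0.644 to 0.741), Acta2 at 793 and 989 CPM (0.802, 0.720 to 0.892) and Des at 146 and 203 CPM (0.717, 0.558 to 0.918). Each lay below 1 beyond counting error and short of 1.5-fold. With the stricter cell filter Tagln (0.620) and Des (0.541) passed 1.5-fold, as did Tagln without the top 4% of cells (0.632). Cnn1 was at 16.9 CPM in both libraries, too low to be measured.

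In the 3 fibroblast classes, most muscle genes were at low levels. Of the 26 genes not listed as broadly expressed, 23 were highest in the class labelled pericytes. Over these 23, the median level in Asc1 fibroblasts was 0.99% (HFD) and 1.38% (NC) of the level in that class. That class gave 18.6% of all HFD counts and 6.31% of NC counts. The part of free RNA in the fibroblast ratios was not tested.

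In Asc1 fibroblasts (3092 HFD and 3999 NC cells), 3 of 27 measured genes were higher and 1 lower in HFD, against 4.88% and 5.46% of all measured genes. The higher genes were Tcap at 7.31 against about 2 CPM (ratio 3.66, 1.91 to 7.49), Actc1 at 9.62 against 3.96 CPM (2.43, 1.49 to 4.07) and Myh11 at 12.1 against 6.90 CPM (1.75, 1.18 to 2.63). Each of the 3 had its counts in at most 4% of the cells, so no value without those cells could be had. As a share of the level in the class labelled pericytes, these were 0.99% in HFD and 1.07% in NC for Tcap, 0.472% and 0.144% for Actc1, and 0.42% and 0.291% for Myh11. The lower gene was Tagln, at 311 CPM in HFD and 489 CPM in NC (0.635, 0.598 to 0.674). It was detected in 37.4% of cells in HFD and 42.5% in NC, and in 25.5% and 32.9% after thinning. With no cell filter its log2 ratio was -0.58, just short of the threshold. With the stricter cell filter Tcap and Actc1 no longer counted among the called genes, nor did Tcap among cells whose 2 class labels agree.

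Gas6 fibroblasts (1095 HFD and 2002 NC cells) had lower levels of an actin, a light chain and a tropomyosin gene in HFD. Of 26 measured genes, 2 were higher and 3 lower in HFD, where 6.08% and 5.91% of all measured genes were, and after scaling by the median of ratios 1 was higher and 3 lower. Acta2 was at 92.1 CPM in HFD and 182 CPM in NC (ratio 0.507, 0.450 to 0.570). Myl9 was at 35.96 and 70.3 CPM (0.512, 0.422 to 0.618), and Tpm2 at 69.1 and 114 CPM (0.608, 0.528 to 0.699). After thinning to 2000 counts, Tpm2 was at a log2 ratio of -0.55, short of the threshold. Each pair of these 3 genes was also above a rho of 0.3 in both libraries in the class labelled pericytes. Acta2 was detected in 29.8% of cells in HFD and 27.9% in NC, and in 10.0% and 14.3% after thinning to 2000 counts. The higher genes were Ppp1r14a, at 976 against 642 CPM (1.52, 1.46 to 1.59), and Tcap, at 7.12 against 3.53 CPM (2.02, 1.13 to 3.62). Scaling by the median of ratios or thinning took Ppp1r14a below 1.5-fold, and the log2 ratio of Tcap ranged from 0.74 to 2.87 over the alternatives.

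In Pi16 fibroblasts (796 HFD and 1222 NC cells), 1 of 23 measured genes was higher and 0 were lower in HFD, against 5.7% and 5.88% of all measured genes. The gene was Ppp1r14a, at 378 CPM in HFD and 227 CPM in NC (ratio 1.67, 1.48 to 1.87). It was also higher in HFD in the other 4 classes, with log2 ratios from 0.32 to 0.64 and intervals above a ratio of 1 in each. Tcap was too sparse there to be measured, with 80 HFD and 10 NC counts.

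**Figure D5:**
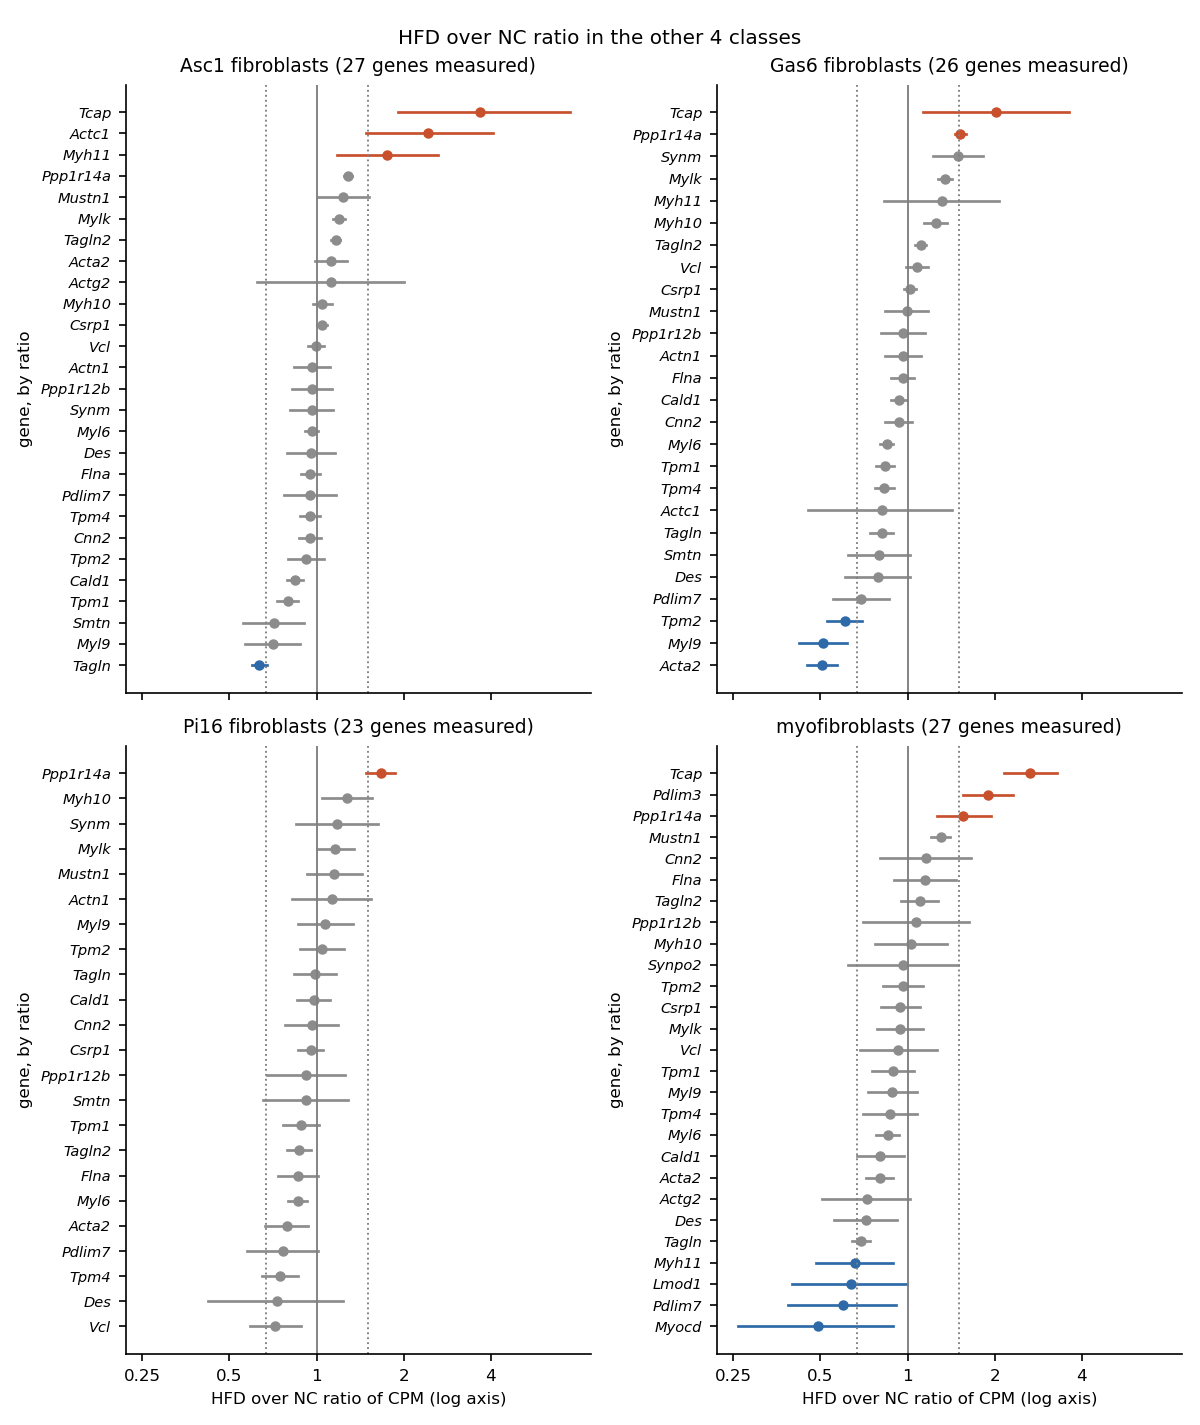
HFD over NC ratio of CPM (log axis) with 95% counting intervals for the genes measured in each of the other 4 classes, sorted by ratio, with genes at or past 1.5-fold (dotted lines) in red where higher and in blue where lower in HFD. Tcap is at the top in 3 panels and Ppp1r14a in the fourth.

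A wider list of 90 genes that build, anchor or control the contractile apparatus was read in the class labelled pericytes. Of 76 measured genes, 4 were higher and 8 lower in HFD by at least 1.5-fold, where 11.4% and 6.77% of all measured genes were. The median log2 ratio was 0.15 beside 0.08 over all genes. The higher genes were Crip1, a LIM protein (4969 against 2735 CPM, ratio 1.82), Heyl, a Notch target (117 against 57.4 CPM, 2.04), Gucy1a1, a subunit of the nitric oxide receptor guanylate cyclase (293 against 170 CPM, 1.73), and Pde5a, which degrades cyclic GMP (163 against 107 CPM, 1.52). The lower genes were led by Hspb1, a small heat shock protein (1972 against 7006 CPM, 0.281), Itga5, an integrin (114 against 287 CPM, 0.398), Flnc, muscle filamin (76.8 against 151 CPM, 0.510), and Filip1l (428 against 734 CPM, 0.584). Whether other genes share reads with Hspb1 was not checked. Srf, which encodes serum response factor, was at 13.4 CPM in HFD and 23.6 CPM in NC (0.568, 0.334 to 0.977). Mrtfb, another coactivator of that factor, was at 18.1 and 29.0 CPM (0.623, 0.391 to 1.004). Myocd, Srf and Mrtfb were each lower in HFD by over 1.5-fold. However, Srf and Mrtfb rested on 177 and 239 HFD counts, and the Mrtfb interval reached 1. Both were named after their values were seen, and the other transcription factors of the list are not given here. A joint change of these genes was not tested. Of the genes with an exact CArG box in the promoter window searched, Actc1 had a ratio of 0.742, Vcl 0.957, Ldb3 0.943, Myl6 1.19, Myl9 1.29 and Cnn2 1.29.

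Because Tcap, Ldb3, Pln and Actc1 are best known from striated muscle, markers of heart and skeletal muscle were checked. Of 28 such genes, 19 were found in the tables and 3 were measured in the class labelled pericytes, and 0 passed 1.5-fold. Tnnt2, cardiac troponin T, was at 44.2 CPM in HFD and 32.2 CPM in NC. Myl7, the atrial light chain, was at 0.0756 and 0 CPM, Tnni3 at 0 and 0.227 CPM, and Actn2 at 0 and 1.13 CPM. The 5 skeletal muscle markers found summed to 5.60 and 5.90 CPM. In the same cells Tcap was at 738 and 186 CPM. The 5 pulmonary vein cardiac muscle markers found, of which Tnnt2 is the main part, summed to 49.0 CPM in HFD and 36.5 CPM in NC in this class and to between 2.19 and 7.92 CPM in the other classes. All 19 striated markers found summed to 123 and 105 CPM in the class, with 5 at 0 in HFD and 4 in NC. The sum of the 19 was higher in Asc1 fibroblasts, at 269 (HFD) and 264 CPM (NC), and in Gas6 fibroblasts, at 181 and 160 CPM. Nearly all of it there came from listed genes outside the vein and skeletal marker sets. Those sets summed to only 2.58 and 2.01 CPM in HFD Asc1 fibroblasts and to 6.40 and 3.87 CPM in HFD Gas6 fibroblasts. It was lower in Pi16 fibroblasts (39.0 and 41.3 CPM) and in myofibroblasts (26.7 and 21.4 CPM). The part of these markers in the Tcap ratio was not tested.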

How the data were processed

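Cells were profiled with a 10x Genomics 3′ v3 kit by a commercial provider, per the labels' protocols, and STAR and the mouse build mm39 are named in the submitters' processing notes. The deposited values are log2 of CPM plus 1 per cell. The deposited tables also give an estimated count total per cell, percent mitochondrial and ribosomal counts, detected genes and 2 class columns. Counts were recovered here from the log2 values and the total (98.8% of HFD and 99.0% of NC values came out whole within 0.01) and rounded. In HFD, an earlier column of totals equalled the one used within 1% in only 6.24% of cells, and it was not used. The cell number listed in the tables was 9573 for HFD and 11241 for NC, against 6971 and 9015 rows. In all, 17 barcodes occurred in both libraries. No doublet caller was run here, and how the submitters treated doublets is not given in the sources used here.

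Cells needed 500 detected genes and no more than 10% mitochondrial counts, and 12.7% (HFD) and 9.71% (NC) of cells failed. The kept cells held 71014948 HFD and 69940474 NC counts. Recovered counts vary more than molecules would, so intervals rest on effective counts, obtained by dividing each count by 4.85 (HFD) or 3.98 (NC), a factor taken from genes seen in 0.1 to 1% of cells. Counts were summed per library and class. Ratios have exact conditional 95% Poisson intervals, which cover counting error only, and ratios 1.5-fold or more from 1 among genes with at least 50 effective counts were called by size, with no test. In data simulated for 7016 genes of the class labelled pericytes with this factor, 96.2% of intervals of unchanged genes held the true ratio, and 98% of genes changed 2-fold passed 1.5-fold, as did 5.82% of unchanged genes. The simulated counts followed the same model as the intervals, so this checks the calculation only. Neither the clustering of a gene's counts in few cells nor the spread between animals was simulated. Thinning left out cells under 2000 counts, 3 in HFD and 25 in NC, which lay in Asc1 and Pi16 fibroblasts.

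The members, the gene lists and the tests were chosen with earlier results of these data known. Values are printed for up to 6 members past the fold per direction in the class labelled pericytes and up to 3 in each other class, ranked by the interval bound nearest to 1, for Acta2, Myh11, Tagln, Cnn1, Des, Myocd, Tcap, Ldb3, Pln and Rgs5, and for up to 4 genes per direction of the wider list. Srf, Mrtfb and Lmod1 in myofibroblasts, and other members given as examples, were named after their values were seen. Gene symbols came from GENCODE vM21, whose build differs from the deposited one, so only the RefSeq promoters carry coordinates. Exons of 12 of the 36 genes overlap another gene, 11 of them on the opposite strand, and whether counting used strand is not given in the sources used here. Of the 31-base words at the 3′ ends of Myl6, 23.3% also occur in other genes, most of all in Gm5526, so the level of Myl6 is uncertain. Scripts used Python 3.11.15, numpy 2.4.6, pandas 2.3.3 and scipy 1.17.1. Alternatives covered cell filters, scaling, averaging, thinning, the top cells of each gene, count minimums and folds.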

Additional observations from a re-analysis of the deposited data

Results flagged for a closer look

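Some genes differed between diets in opposite directions in different classes, with the higher library at least 25% above the lower in each and counting intervals on opposite sides of 1. The differences between classes were not tested, and with 1 library per diet they have no replicate check. Actc1 had an HFD over NC ratio of 2.43 in Asc1 fibroblasts and 0.742 in the class labelled pericytes. Myh11 was at 1.75 in Asc1 fibroblasts and 0.659 in myofibroblasts. Myl9 was at 1.29 in the class labelled pericytes, 0.707 in Asc1 fibroblasts and 0.512 in Gas6 fibroblasts. Smtn was at 1.26 in the class labelled pericytes and 0.712 in Asc1 fibroblasts, and Lmod1 at 1.27 in the class labelled pericytes and 0.636 in myofibroblasts.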

How the results depend on the processing

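No paired analysis was possible because each diet has 1 library and the labels give no replicate numbers. The counts of genes at least 1.5-fold higher or lower were recomputed under 13 alternatives, of which the finer label and the shared barcodes were chosen after seeing the data. Of 130 recomputed counts, 91 stayed within 1.5 times of the reported one, among them all 10 for cells whose 2 class labels agree, all 10 without shared barcodes and all 10 scaled to a total without mitochondrial and ribosomal genes, and 39 did not. The cause was not tested for these, except that a lower fold (the higher library at least 25% above the lower) or minimum admits more genes and a higher one fewer. Percentages in brackets below are shares of all genes measured under the same alternative, which were not computed without the top 4% of cells. In the class labelled pericytes, 7 of 34 genes were higher with the stricter cell filter (12.9%) and 9 of 35 at the lower fold (26.7%). Of 35 genes, the lower ones were 1 with averaging over cells (7.34%), 1 after thinning (12.1%), 5 at the lower fold (16.1%) and 0 at 2-fold (1.8%). In myofibroblasts, 1 of 27 genes was higher at 2-fold (1.24%). The lower genes there were 1 of 27 after thinning (10.5%) and 0 of 18 at 200 effective counts (4.92%). At the lower fold they were 7 of 27 (21.2%) and at 2-fold 1 of 27 (1.59%). In Asc1 fibroblasts, 1 of 24 genes was higher with the stricter cell filter (5.29%) and 0 of 23 at 200 effective counts (3.01%). The lower genes there were 0 of 30 with no cell filter (5.59%), 2 of 27 after thinning (6.82%) and 2 of 27 without the top 4% of cells. With no minimum they were 2 of 34 (15.6%), at the lower fold 4 of 27 (15.5%) and at 2-fold 0 of 27 (1.1%). In Gas6 fibroblasts, of 26 genes, the higher ones were 1 with scaling by the median of ratios (5.41%), 4 with averaging over cells (6.41%) and 1 after thinning (10.2%). They were 5 of 35 with no minimum (16.9%), 1 of 23 at 200 effective counts (3.41%), 5 of 26 at the lower fold (19.6%) and 1 of 26 at 2-fold (0.891%). The lower genes there were 5 of 26 without the top 4% of cells and 5 of 35 with no minimum (14.5%). At the lower fold they were 6 of 26 (16.3%) and at 2-fold 0 of 26 (1.23%). In Pi16 fibroblasts, the higher genes were 2 of 23 without the top 4% of cells and 9 of 34 with no minimum (19.5%). At the lower fold they were 2 of 23 (18.3%) and at 2-fold 0 of 23 (0.827%). The lower genes there were 1 of 22 with the stricter cell filter (6.62%), 1 of 23 with averaging over cells (6.39%) and 1 of 23 without the top 4% of cells. With no minimum they were 1 of 34 (15.4%) and at the lower fold 5 of 23 (17.2%). No called ratio of a named gene changed direction under an alternative that gave a value, and of 335 recomputed log2 ratios of named genes 299 stayed within the counting interval. Of 192 recomputed levels, 155 did. In the classes other than the one labelled pericytes, 9 to 13 of the 36 genes were below the minimum. Asc1 and Gas6 fibroblasts had 11071 and 10550 genes of any kind measured, against 7016 in the class labelled pericytes.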
